A study of Mus musculus with 4 samples.

Results

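The genes described here encode the membrane carriers of sugars, lactate and related small molecules: the facilitative glucose transporters (Slc2a), the sodium-coupled sugar and vitamin transporters (Slc5a) and the monocarboxylate transporters (Slc16a). They were taken by symbol, as every row of the table named Slc2a, Slc5a or Slc16a with a number, which gave 39 of 49568 genes: 12 Slc2a, 13 Slc5a and 14 Slc16a. Libraries of total RNA from mouse were made from purified migrasomes (2 libraries) and from cytosol (2 libraries). Migrasomes are vesicles that grow on the retraction fibres trailing a migrating cell. The sources used here give no strain, genotype, treatment or cell type, and do not say whether separate cultures were used. The p-values therefore describe the scatter among these 4 libraries, which could be technical alone.

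Glucose enters most cells through Slc2a carriers, which let sugar pass down its gradient, and lactate leaves or enters through Slc16a carriers together with a proton. Slc5a carriers use the sodium gradient to move glucose, myo-inositol, iodide, choline or vitamins against their own gradient. All are proteins that cross the membrane many times, and their mRNAs are translated by ribosomes bound to the endoplasmic reticulum. In proliferating cells Slc2a1 (GLUT1) and Slc16a1 (MCT1) are the best known members, and Slc16a1 reaches the cell surface only with a partner, basigin (Bsg) or embigin (Emb).

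The stretches below show what kind of sequence these mRNAs share. Codons with T at the second position encode the hydrophobic residues phenylalanine, leucine, isoleucine, methionine and valine, of which membrane-spanning segments are rich. Each line is the run of 20 codons (60 bases) with the most such codons in the coding sequence, 5′ to 3′ on the coding strand, with those T in capitals. Slc2a1, Slc16a1 and Slc5a6 are shown as examples of mRNAs lower in migrasome. Slc5a3 is shown because its mRNA did not pass the test, and Ldha as a soluble enzyme.
Slc2a1: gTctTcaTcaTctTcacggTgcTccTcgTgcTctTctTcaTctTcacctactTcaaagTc
Slc16a1: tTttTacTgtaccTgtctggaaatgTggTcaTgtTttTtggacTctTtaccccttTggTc
Slc5a6: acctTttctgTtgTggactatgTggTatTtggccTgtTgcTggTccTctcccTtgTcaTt
Slc5a3: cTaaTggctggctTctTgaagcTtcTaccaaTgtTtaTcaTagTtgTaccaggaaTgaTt
Ldha: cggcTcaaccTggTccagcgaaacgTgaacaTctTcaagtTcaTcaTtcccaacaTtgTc

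The Slc2a1 stretch, at chr4:119136264-119136323 (plus strand; here and below GRCm38 with the GENCODE M21 annotation), held 16 such codons among its 20. The others held 13 (Slc16a1, chr3:104653146-104653205, plus strand), 14 (Slc5a6, chr5:31043217-31043276, minus strand), 14 (Slc5a3, chr16:92077954-92078013, plus strand) and 11 (Ldha, chr7:46850249-46850308, plus strand). Each lies within 1 coding exon. The richest stretch of Slc5a3 was thus as rich in these codons as that of Slc5a6. Of other members lower in migrasome, Slc16a13 held 13 in its richest stretch and Slc2a8 and Slc16a6 held 12 each. The glycolytic enzymes Hk1 and Hk2 held 12 each as well, so this measure did not set all members apart from soluble enzymes.

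Between 5171092 and 8608369 reads fell on genes in each library, fewer in the migrasome libraries than in cytosol. Values are the deposited normalised read counts, in which 1 read was worth 0.776 and 0.686 in the cytosol libraries and 1.41 and 1.32 in the migrasome libraries. Where a pair of values is given for a group, replicate 1 comes first. Of the markers listed for other cell types, the 4 epithelial ones summed to at most 2.83 in a library, the 3 endothelial ones to at most 2.63 and the 2 erythroid ones to at most 1.55. The 4 leukocyte markers summed to 11.8 to 24.7, mostly from Lyz2, and the 3 hepatocyte markers to 6.86 to 13.2, all from Ttr, with Alb and Apoa1 at 0. Lyz2 and Ttr entered the test and did not pass. Of 7 tested fibroblast markers 5 fell (Col1a1, Col1a2, Col3a1, Pdgfrb and Fn1, from -2.20 to -1.01 on the log2 scale), against 17.7% of all tested genes. Vim rose by 0.94, and Thy1 lay above cytosol in both migrasome libraries but did not pass (1.03, limma adjusted p = 0.14). Dcn was near 0 in all 4 libraries. The part of these markers in the transporter values was not tested.

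Of the 39 transporter genes, 9 were expressed above the filter (2 or more libraries with a value of 10 or higher), and 6 of these were lower in migrasome by limma (adjusted p under 0.05, Benjamini-Hochberg over 10860 genes). None was higher. Over all tested genes 17.7% were lower and 8.68% higher. Slc2a1, Slc2a8, Slc16a1, Slc16a6, Slc16a13 and Slc5a6 were the 6 that fell, Slc2a9 and Slc16a11 had negative differences that did not pass, and Slc5a3 was the only tested member whose groups overlapped. In 8 of the 9 both migrasome libraries lay below both cytosol libraries, an arrangement seen in 36.3% of all tested genes. Slc2a8 reached the filter's value in cytosol only, so a low migrasome value was built into its selection, and Slc16a13 reached it in 1 migrasome library beside both cytosol libraries. Among the 4 members with a mean of at least 50 over all libraries (Slc2a1, Slc16a1, Slc5a3 and Slc5a6) 3 fell, against 18.7% of the genes that pass that stricter filter. The values are relative to each library's other RNA, so fewer vesicles carrying a transcript and fewer copies in each cannot be told apart.

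**Figure D1:**
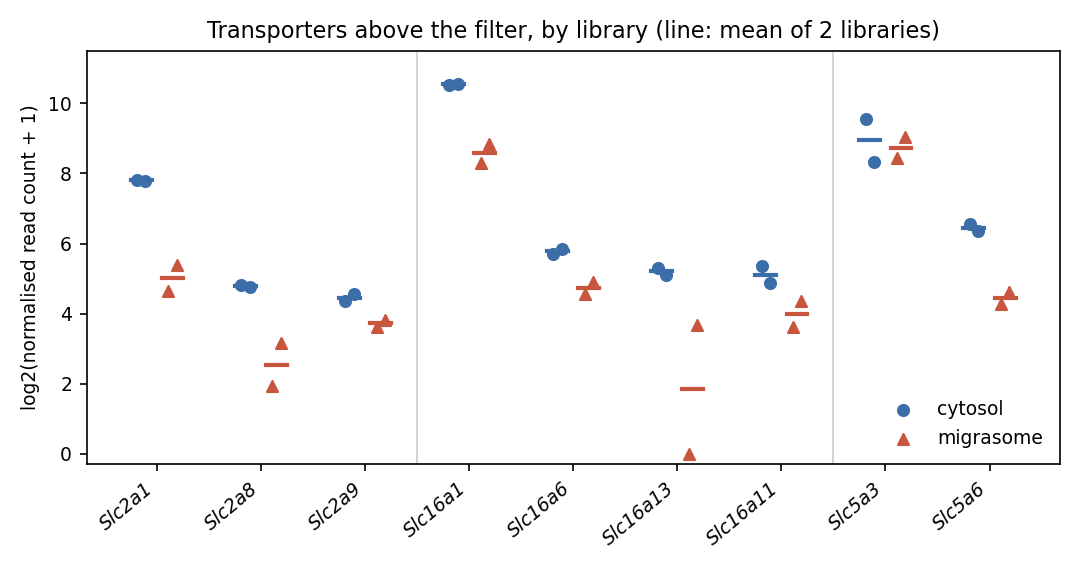
Log2(normalised read count + 1) of the 9 transporter genes above the filter, for each library (circles cytosol, triangles migrasome) with the mean of 2 libraries as a line; grey lines part Slc2a, Slc16a and Slc5a. The migrasome points lie below the cytosol points in 8 genes and among them in Slc5a3.

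Among the glucose transporters, Slc2a1 (ENSMUSG00000028645.11, chr4:119108711-119137983, plus strand), the basal glucose carrier of most cells, was read at 224 and 221 in cytosol and at 24.0 and 40.8 in migrasome. Both migrasome libraries were far below the cytosol libraries, which agreed closely with each other. The migrasome mean was 14.6% of the cytosol mean (32.4 ± 11.9 against 222 ± 2.36, SD, n = 2 each), which on the log2 scale is a difference of -2.79 ± 0.31 (SE; limma adjusted p = 0.00054). Only 0.276% of tested genes had a more negative difference. These values rest on 17 and 31 reads in migrasome and 289 and 322 in cytosol.

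Slc2a8 (GLUT8, ENSMUSG00000026791.14, chr2:32972990-32982083, minus strand) is a carrier held in membranes inside the cell. It was read at 27.2 and 26.1 in cytosol and at 2.83 and 7.90 in migrasome, the latter from 2 and 6 reads. Its difference was -2.24 ± 0.53 on the log2 scale (SE, limma adjusted p = 0.014). Leaving out cytosol replicate 1 or 2 ended its call (limma adjusted p = 0.076 and 0.07).

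Slc2a9 (GLUT9, ENSMUSG00000005107.13, chr5:38349273-38503143, minus strand) is known as a carrier of urate. It stood at 19.4 and 22.6 in cytosol and at 11.3 and 13.2 in migrasome. The groups did not overlap, but the log2 difference of -0.73 had a 95% interval from -1.66 to 0.19 and did not pass (limma adjusted p = 0.20). This gene had 8 and 10 reads in the migrasome libraries.

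The other 9 Slc2a genes had hardly any reads. Slc2a3 (GLUT3), the high-affinity carrier of neurons, had 6 reads in the 2 cytosol libraries together and 3 in migrasome replicate 1. Slc2a5, the fructose carrier, had 3 reads in cytosol replicate 2 alone. Slc2a7 had 1 read in cytosol replicate 1 and 2 in migrasome replicate 2, and Slc2a13, a proton-coupled myo-inositol carrier, had 1 read in migrasome replicate 1. The liver and islet carrier Slc2a2, the insulin-regulated Slc2a4 (GLUT4), Slc2a6, Slc2a10 and Slc2a12 had none in any library. A count of 0 allows up to 3 reads, worth 2.33 and 2.06 in the cytosol libraries and 4.24 and 3.95 in the migrasome libraries, for counting error only. At this depth these 9 genes can be compared in neither direction, and Slc2a1 was the only Slc2a gene with a value above 30 in any library.

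Among the monocarboxylate transporters, Slc16a1 (MCT1, ENSMUSG00000032902.1, chr3:104638668-104658462, plus strand), which carries lactate, pyruvate and ketone bodies, was read at 1485 and 1486 in cytosol and at 314 and 459 in migrasome. The cytosol libraries were all but equal and the migrasome libraries both far lower. The migrasome mean was 26.0% of the cytosol mean (387 ± 103 against 1485 ± 0.564, SD, n = 2 each). The log2 difference was -1.96 ± 0.23 (SE, limma adjusted p = 0.00055, 95% interval from -2.48 to -1.45). It was the best measured member, with 222 and 349 reads in migrasome and 1914 and 2166 in cytosol.

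Slc16a6 (MCT7, ENSMUSG00000041920.14, chr11:109450855-109473598, minus strand), a less studied carrier of the family, stood at 51.2 and 56.9 in cytosol and at 22.6 and 29.0 in migrasome. Its log2 difference was -1.05 ± 0.33 (SE, limma adjusted p = 0.041), and the call was lost under 6 of 13 alternatives, among them DESeq2 on whole reads (adjusted p = 0.12) and quantile normalization (difference -0.64, limma adjusted p = 0.16). It was also lost without cytosol replicate 1 or 2 (limma adjusted p = 0.20 and 0.27) and without migrasome replicate 1 (0.07). Its exons share 1052 bases, 21.5% of its exon length, with Amz2 on the opposite strand. Whether the counting used strand is not stated in the sources used here, so reads there cannot be told apart. Amz2 itself stood at 431 and 346 in cytosol and at 481 and 542 in migrasome and did not pass the test.

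Slc16a11 (ENSMUSG00000040938.16, chr11:70212752-70216417, plus strand) and Slc16a13 (MCT13, ENSMUSG00000044367.7, chr11:70216789-70221064, minus strand) are neighbouring genes on opposite strands whose gene models do not overlap. Slc16a13 was read at 38.8 and 33.6 in cytosol, at 0 in migrasome replicate 1 and at 11.8 in replicate 2, where it had 9 reads. It differed by -3.37 ± 0.95 on the log2 scale (SE, limma adjusted p = 0.028). That size depends on the library at 0: it was -1.53 without migrasome replicate 1 and -5.21 without replicate 2, and the call was lost with DESeq2 on whole reads (difference -2.58, adjusted p = 0.33). Slc16a11 stood at 40.3 and 28.1 in cytosol and at 11.3 and 19.7 in migrasome. Its migrasome libraries were both lower, with a log2 difference of -1.12 ± 0.42 that did not pass (limma adjusted p = 0.073). It passed without migrasome replicate 2 (difference -1.49, limma adjusted p = 0.0094).

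The remaining 10 Slc16a genes were below the filter. Slc16a3 (MCT4), the carrier by which strongly glycolytic cells release lactate, had 6 reads in cytosol replicate 1 and 1 each in cytosol replicate 2 and migrasome replicate 1. Slc16a5 had 2 and 1 reads in cytosol libraries and 1 and 0 in migrasome libraries, and Slc16a4 and Slc16a7 (MCT2) had 1 read each in a cytosol library. Slc16a8, Slc16a9, Slc16a10, Slc16a12 and Slc16a14 had none. Of the best known lactate carriers (Slc16a1, Slc16a3, Slc16a7 and Slc16a8), Slc16a1 alone was thus measured well enough to compare the fractions.

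Among the sodium-coupled transporters, Slc5a6 (SMVT, ENSMUSG00000006641.12, chr5:31036036-31048924, minus strand), which takes up biotin and pantothenate, was read at 93.1 and 80.9 in cytosol and at 18.4 and 23.7 in migrasome. Its migrasome mean was 24.2% of the cytosol mean, and it differed by -2.00 ± 0.32 on the log2 scale (SE; limma adjusted p = 0.0018). Its exons share 396 bases (9.92% of its exon length) with Atraid on the opposite strand, which fell as well (-1.29, limma adjusted p = 0.0066, and 0.088 without cytosol replicate 2).

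Slc5a3 (SMIT1, ENSMUSG00000089774.2, chr16:92058322-92087473, plus strand) takes up myo-inositol, an osmolyte, and is known to be induced by hypertonic medium. It was read at 755 and 321 in cytosol and at 345 and 526 in migrasome. The highest and the lowest value were both in cytosol and the migrasome libraries lay between them. The log2 difference was -0.21 ± 0.37 (SE, limma adjusted p = 0.69), with a 95% interval from -1.03 to 0.61. That interval does not reach the point estimates of Slc2a1, Slc2a8, Slc16a1, Slc16a13 and Slc5a6. It narrowly misses those of Slc16a6 (-1.05) and Slc16a11 (-1.12). Slc5a3 was not itself tested against these genes. Its sign turned to 0.41 without cytosol replicate 1 and to 0.10 without migrasome replicate 1, and it passed in neither.

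The gene model of Slc5a3 lies within that of Mrps6, a mitochondrial ribosomal protein gene on the same strand, and shares 159 of its 10913 exon bases with it, so some reads may belong to either. Mrps6 stood at 425 and 258 in cytosol and at 677 and 309 in migrasome, with a log2 difference of 0.47 that did not pass (limma adjusted p = 0.35). In cytosol both genes were higher in replicate 1. In migrasome Slc5a3 was higher in replicate 2 and Mrps6 in replicate 1.

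The other 11 Slc5a genes had few reads or none. Slc5a1 (SGLT1), the glucose carrier of the gut, had 1 or 2 reads in 3 libraries and none in migrasome replicate 2, where Slc5a2 (SGLT2), the glucose carrier of the kidney, had its 1 read. Slc5a5, the iodide carrier, had 1 read in 3 libraries and none in migrasome replicate 1. Slc5a8 and Slc5a11 had 2 and 1 reads over the 4 libraries. Slc5a4a, Slc5a4b, Slc5a7 (the choline carrier of nerve endings), Slc5a9, Slc5a10 and Slc5a12 had none. Over all 39 genes, 16 had no read in any library, and the 14 with reads but below the filter had at most 9 over the 4 libraries. The 30 genes below the filter held 15 and 18 reads in the cytosol libraries and 8 and 5 in the migrasome libraries.

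By subfamily, 2 of 3 tested Slc2a genes fell (median log2 difference -2.24), 3 of 4 Slc16a genes (-1.54) and 1 of 2 Slc5a genes (-1.11). The median over all 9 was -1.96, against 0.00 over all tested genes, of which 10% lay below -1.42. The Slc2a median is the value of Slc2a8 itself. These medians leave out the 30 genes below the filter and rest on 2 to 4 genes each, so no order of the subfamilies was read from them. With quantile normalization 5 of the 9 fell and with edgeR 6 of the 9, against 12.9% and 19% of all tested genes. With DESeq2 4 of the 9 fell (Slc2a1, Slc2a8, Slc16a1 and Slc5a6), against 14.7% of all tested genes.

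Summed over the 39 genes, the transporters reached a normalised read count of 2745 and 2288 in cytosol and of 761 and 1138 in migrasome. Slc16a1 and Slc5a3 made up most of that sum in each library. Slc16a1 gave 54.1% and 64.9% of the summed normalised value in cytosol and 41.3% and 40.3% in migrasome, and Slc5a3 27.5% and 14.0% against 45.4% and 46.2%. Slc2a1 gave 8.17% and 9.65% in cytosol and 3.16% and 3.58% in migrasome. Without Slc5a3 the summed value was 1991 and 1967 in cytosol and 416 and 612 in migrasome. By read count, which is not scaled by exon length, the make-up of the family thus differed between the fractions. Slc5a3 was the largest part in both migrasome libraries and Slc16a1 in both cytosol libraries. Slc5a3 has 10913 exon bases and Slc16a1 4426. Per kilobase of exon Slc16a1 (70.9 and 104) lay above Slc5a3 (31.6 and 48.2) in both migrasome libraries.

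Per kilobase of exon, the mean level in cytosol was 336 for Slc16a1, followed by 63.5 for Slc2a1 and 49.3 for Slc5a3, then 21.8 for Slc5a6. Slc16a13 (13.9), Slc16a11 (13.4) and Slc16a6 (11.1) followed, and Slc2a8 (8.29) and Slc2a9 (4.13) were lowest. Slc2a1 (64.0 and 63.0 in the 2 libraries) lay within the range of Slc5a3 (69.2 and 29.4), so these neighbours were not separated. Slc16a11 (15.8 and 11.0) overlapped both Slc16a13 (14.9 and 12.9) and Slc16a6 (10.5 and 11.7), whereas Slc16a13 lay above Slc16a6 in both cytosol libraries. In migrasome the level per kilobase was 87.4 for Slc16a1 and 39.9 for Slc5a3, and the other 7 lay between 1.67 (Slc2a8) and 9.25 (Slc2a1). Slc2a1 thus stood next to Slc5a3 in cytosol, and in migrasome both of its libraries (6.86 and 11.6) were below both of Slc5a3 (31.6 and 48.2). Exon length here is that of all annotated transcripts joined, which may be longer than the transcripts present.

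In all 9 tested members migrasome replicate 2 had a higher value than replicate 1. Among all tested genes this held for 51.6%, and among genes lower in migrasome for 78.6%. Leaving out migrasome replicate 1 brought the median of the 9 genes to -1.53 and leaving out replicate 2 to -2.18. The values of Slc2a1 (-2.42 and -3.16) and Slc16a1 (-1.69 and -2.24) moved in the same way and passed the limma test in both cases.

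Bsg, the partner protein of Slc16a1, crosses the membrane and was read at 2320 and 3200 in cytosol and at 552 and 919 in migrasome. It fell by 1.94 on the log2 scale (SE 0.27, limma adjusted p = 0.0011), beside -1.96 for Slc16a1. The other partner, Emb, had a single read, in migrasome replicate 1. The partner list also holds proteins that regulate or recycle glucose carriers and the mitochondrial pyruvate carrier. Beside 17.7% lower and 8.68% higher among all tested genes, Bsg alone of its 13 tested genes was lower (7.69%) and none was higher (median 0.37). These counts moved with the settings: 3 were higher and 3 lower with a replicate block, and 2 and 2 with quantile normalization. The counts over all 10860 tested genes moved as well, to 1802 higher and 2621 lower with a replicate block and 1194 and 1403 with quantile normalization. The median of the 13 partner genes was 0.09 with every library scaled to the same total. It was 0.22 without migrasome replicate 1 and 0.31 without migrasome replicate 2. Lnpep, a membrane aminopeptidase that travels with Slc2a4, was read at 1286 and 965 in cytosol and at 478 and 825 in migrasome (-0.83, limma adjusted p = 0.053), and it passed with edgeR (adjusted p = 0.041) and DESeq2 (adjusted p = 0.044).

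The rest of the partner list lay closer to 0. Txnip, a soluble arrestin-like protein that draws Slc2a1 from the surface, had a difference of -0.76 and its relative Arrdc4 of 0.30. Mpc1 and Mpc2, the subunits of the mitochondrial pyruvate carrier, had values above cytosol in both migrasome libraries (0.55 each, limma adjusted p = 0.11 and 0.10). The retromer subunits Vps35 (0.61), Vps26a (0.40) and Vps29 (0.44), with the sorting nexin Snx27 (0.00), recycle Slc2a1, and none of them passed. Gipc1, which binds the tail of Slc2a1, was at 0.02, and Tbc1d4 (0.37) and Aspscr1 (0.41), which hold back Slc2a4, did not pass either.

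Of 17 soluble glycolytic enzymes 10 rose and none fell (median 0.68), beside 8.68% higher among all tested genes. Pkm, which makes pyruvate, was read at 7662 and 7045 in cytosol and at 20090 and 13930 in migrasome (1.19 ± 0.26, SE, limma adjusted p = 0.01). Ldha, which interconverts pyruvate and lactate, had a difference of 0.53 that did not pass (limma adjusted p = 0.12), Eno1 rose by 0.82 and Pgk1 by 1.06. Hk2, a hexokinase, which phosphorylates incoming glucose, had a difference of -0.42 that did not pass (limma adjusted p = 0.18), and neither did that of Eno2 (-0.40). Hk2 passed as lower with every library scaled to the same total (-0.69, limma adjusted p = 0.039) and without migrasome replicate 1 (-0.62, limma adjusted p = 0.049). Hk1, the other hexokinase of the list, rose by 0.87. The count of glycolytic genes that rose was 6 with quantile normalization and 4 each with the same total, with no filter and without the trend. Over all tested genes the number higher was 1194, 322, 393 (of 19077) and 483 in the same order, against 943 of 10860. The median of the 17 enzymes was 0.60 to 0.99 with 1 library left out. Leaving out cytosol replicate 1 ended the calls of Pkm, Eno1 and Pgk1, leaving out cytosol replicate 2 those of Pkm, Eno1 and Hk1, and leaving out migrasome replicate 1 that of Hk1 (limma adjusted p from 0.061 to 0.23).

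Among enzymes of inositol and ketone bodies, 3 of 5 tested rose and none fell (median 0.78), beside 8.68% higher and 17.7% lower among all tested genes. Isyna1, which makes myo-inositol from glucose 6-phosphate, was read at 358 and 405 in cytosol and at 638 and 675 in migrasome (0.78, limma adjusted p = 0.02), beside Slc5a3 with no called difference. Impa1 (0.38) did not pass. The ketone body enzymes Oxct1 (1.13) and Acat1 (0.94) rose, whereas Slc16a1, the carrier of ketone bodies, fell. Of 5 tested biotin enzymes 1 rose and 1 fell, beside the same shares of all tested genes. Pcx, a mitochondrial carboxylase, rose by 0.76 (limma adjusted p = 0.049), Acaca (0.04) and Mccc1 (1.07, limma adjusted p = 0.10) did not pass, and Btd, a secreted enzyme that frees biotin, fell by 2.13 (limma adjusted p = 0.0014), as did the biotin carrier Slc5a6. Mccc1 passed as higher with edgeR (1.19, adjusted p = 0.048) and DESeq2 (1.24, adjusted p = 0.038), and Pcx missed the threshold with DESeq2 (adjusted p = 0.053). Without cytosol replicate 1 the calls of Isyna1, Acat1 and Pcx were lost, without cytosol replicate 2 those of Isyna1, Oxct1 and Pcx, and without migrasome replicate 1 that of Pcx, whereas Btd passed in all 4 cases.

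**Figure D2:**
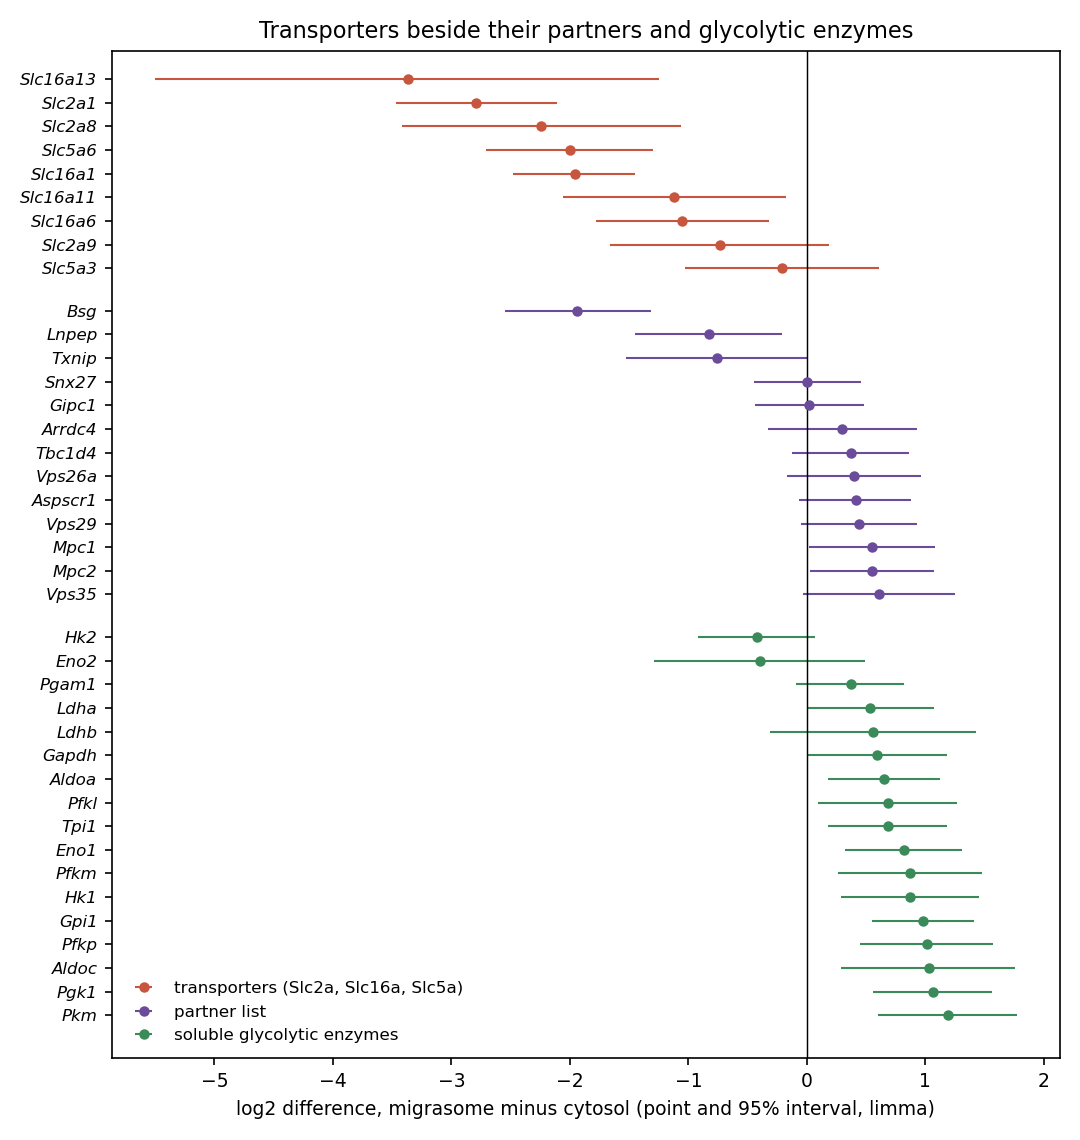
Log2 difference (migrasome minus cytosol, point and 95% interval from limma) of the 9 tested transporters, 13 partner genes and 17 soluble glycolytic enzymes. All 9 transporters lie left of 0, with Slc2a9 and Slc5a3 reaching across it, Bsg lies with them at -1.94, and 15 of the 17 enzymes lie right of 0.

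Most tested genes of the other Slc groups, Slc25a apart, were lower in migrasome as well. The groups were taken by symbol and also hold genes whose proteins are not carriers. These include Slc7a6os (-0.003) in the amino acid group. Among the other Slc genes they include Slc4a1ap (0.37), Slc9a3r1 (-0.19) and Slc9a3r2 (0.17). None of them passed, so counting them lowers the shares of their groups. Of 26 tested genes of the amino acid group 18 fell and 1 rose (median -1.64). Of 19 genes of the nucleotide sugar group (Slc35) 12 fell and none rose (-1.21), and of 79 other Slc genes 51 fell and none rose (-1.34). Those shares are 69.2%, 63.2% and 64.6%, against 66.7% (6 of 9) for the sugar and monocarboxylate carriers, a count that includes Slc2a8. With a mean of at least 50 over all libraries, a filter that does not use the groups, 16 of 19 amino acid, 8 of 15 Slc35 and 42 of 56 other Slc genes fell, against 3 of 4. The mitochondrial carriers (Slc25a), whose proteins are made on free or mitochondrion-bound ribosomes, differed from these groups in their values. Of 36 tested, 3 fell (8.33%) and 1 rose (2.78%), against 17.7% and 8.68% of all tested genes, and the median was -0.16. With a replicate block the Slc25a counts were 6 and 3, beside 2621 lower and 1802 higher of 10860 tested genes. With the same total per library they were 5 and none, beside 2522 and 322. Without cytosol replicate 1 the median was -1.50 for the amino acid group, -1.25 for Slc35 and -1.29 for the other Slc genes. It was -0.19 for Slc25a, -1.91 for the 9 sugar and monocarboxylate carriers and -0.02 over all tested genes. The counts of called genes given above therefore do not set the sugar and lactate carriers apart from the other Slc groups outside Slc25a.

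**Figure D3:**
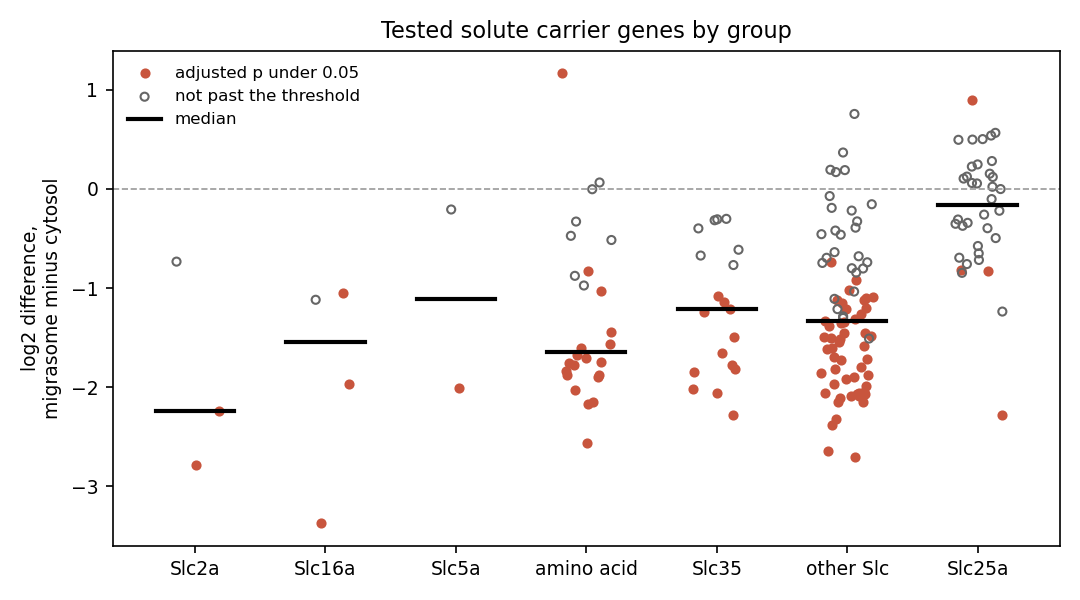
Log2 difference (migrasome minus cytosol) of every tested gene with an Slc symbol by group, filled where the limma adjusted p is under 0.05 and open otherwise, with the group's median as a bar. Medians of the Slc2a, Slc16a and Slc5a groups (-2.24, -1.54 and -1.11) lie below, within and above the medians of the 3 other non-mitochondrial groups (-1.64 to -1.21), and Slc25a lies near 0 (-0.16).

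Markers of the rough endoplasmic reticulum, added after their values were seen, were also lower in migrasome. All 7 (Hspa5, Hsp90b1, Canx, P4hb, Calr, Pdia3 and Sec61a1) fell, against 17.7% of all tested genes, with log2 differences from -2.03 to -1.74. Their summed value was 63400 and 50100 in cytosol and 13200 and 15800 in migrasome. Slc16a1 (-1.96) and Slc5a6 (-2.00) lay within that range of log2 differences. Slc2a1 (-2.79), Slc2a8 (-2.24) and Slc16a13 (-3.37) lay below it. Slc16a6 (-1.05), Slc16a11 (-1.12), Slc2a9 (-0.73) and Slc5a3 (-0.21) lay above it. The 95% interval of Slc2a1, from -3.47 to -2.11, does not reach the range, though the difference between genes was not tested. With quantile normalization the markers ran from -2.58 to -1.96, with Slc2a1 (-2.47) and Slc16a1 (-2.09) inside that range and Slc5a6 (-1.63) outside it. The 4 mitochondrially encoded markers all rose (median 2.28), against 8.68% of all tested genes. None of the 3 nuclear RNAs passed with limma (median -0.79). In each of them both migrasome libraries lay below both cytosol libraries, an arrangement seen in 36.3% of all tested genes. Malat1 passed as lower with DESeq2 (adjusted p = 0.032), and Neat1 with edgeR (adjusted p = 0.046) and DESeq2 (adjusted p = 0.04). The part of these fractions in the transporter values was not tested.

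The coding sequences of the transporters were rich in codons with T at the second position. The genes were chosen as families of proteins that cross the membrane many times. Richness in these codons therefore came with the choice and is given as a description. The share of such codons was 32.3% (Slc16a6) to 39.2% (Slc2a1) in the 9 tested members and had a median of 36.7% over all 39. Over the 9973 tested genes with a coding sequence (91.8% of those tested) the median was 26.5% and 90% of genes lay below 32.4%. Slc2a1 was above 98.7% of them and Slc16a6, the lowest member, above 89.7%. Among the 1147 genes with a share of at least 32%, 42.6% were lower and 4.27% higher in migrasome, against 14.8% and 8.95% of the 8826 below it.

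Codon share and difference did not go together across the whole range. Spearman's rho across the 9973 genes was -0.013, given as a description because genes of a library are not independent and share its depth. The collagen genes Col1a1, Col1a2 and Col3a1, at 10.9%, 13.2% and 10.7%, had differences of -1.97, -2.20 and -2.03 that passed the limma test. Slc5a3 (37.2%) and Slc5a6 (38.5%) were close in share and had differences of -0.21 and -2.00. The soluble Ldha (33.7%) lay near Slc16a11 (33.8%) in share with a positive difference. The share did not rank these genes by their difference.

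**Figure D4:**
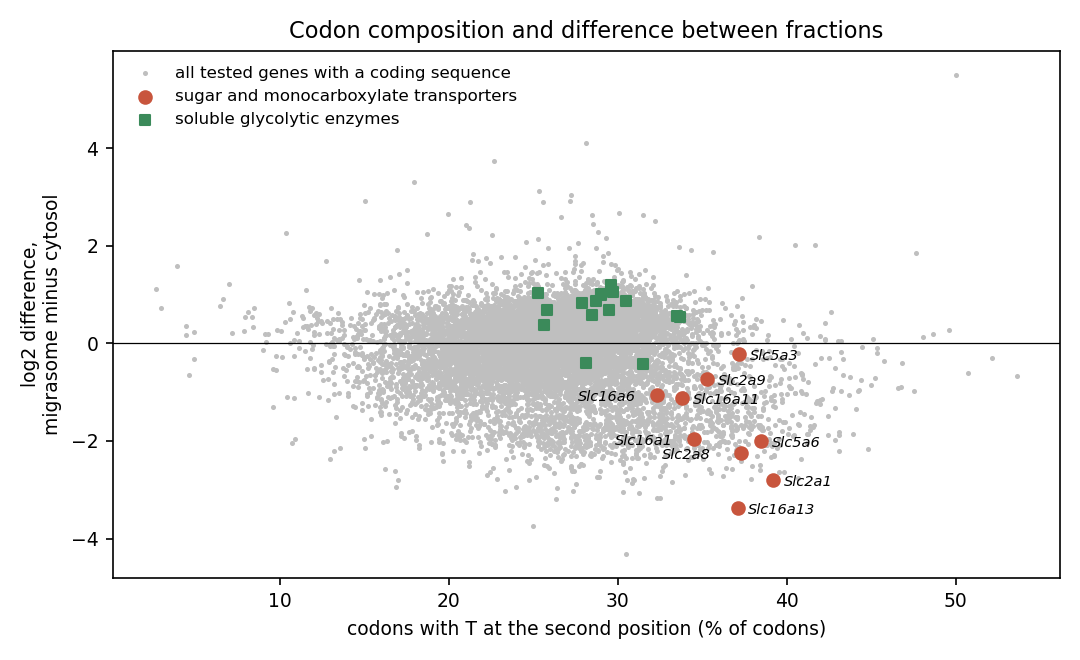
Share of codons with T at the second position (x axis, percent) against the log2 difference (migrasome minus cytosol, y axis) for 9973 tested genes (grey), the 9 tested transporters (red circles) and the soluble glycolytic enzymes with a coding sequence (green squares). The transporters lie at 32.3% or more, and Slc5a3 is the one nearest to 0.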

How the data were processed

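RNA of purified migrasomes and of cytosol from mouse was sequenced in 2 libraries per group, which the sample titles name. The submitters' processing notes list cutadapt, Trimmomatic, FastQC, STAR, HTSeq, DESeq and the build GRCm38, without versions. The table deposited by the authors holds a normalised signal for each gene, read counts scaled by a size factor. Annotation, strand setting and the handling of multi-mapping reads are not stated there. Dividing each library by its smallest value above 0 gave whole reads for 100% of values (tolerance 0.001).

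Values were tested as log2(value + 1) with limma 3.58.1 (eBayes with a trend, R 4.3.3). This scale can understate changes of low genes and, with a library at 0, overstate them. Slc16a13 was at -3.37 with limma, against -2.56 with edgeR and -2.58 with DESeq2. A gene was tested where 2 or more libraries reached a value of 10. The Benjamini-Hochberg threshold was 0.05 over 10860 genes, of which 1919 were lower and 943 higher in migrasome. edgeR 4.0.16 (3135 genes called) and DESeq2 1.42.0 (2739) were run on whole reads. With 2 libraries a group, an exact two-sided permutation test of 1 gene has a smallest p of 0.333. Replicates differed beyond sampling noise (chi-square per degree of freedom 17.6 in cytosol and 27.9 in migrasome, genes with 20 or more reads).

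Positions, exon lengths and coding sequences came from GENCODE M21, in which all 39 members were found. The members and lists were chosen with earlier results of these data known. Named are the members (1 below the filter is counted but not reported here), all partner genes and the 4 most abundant genes of each enzyme list. Hk1, Hk2, Eno2 and the named cell type and compartment markers were added after their values were seen. So were 2 of the genes that overlap members on the opposite strand (Atraid, Amz2). The analysis was tested on simulated data. Figures were drawn with matplotlib 3.10.9.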

Additional observations from a re-analysis of the deposited data

How the results depend on the processing

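Across 13 or 14 alternatives each, the calls of Slc2a1, Slc16a1 and Slc5a6 held in all, with differences from -3.16 to -2.42, from -2.24 to -1.69 and from -2.27 to -1.63, and Slc2a9 passed in none. The call of Slc16a13 was lost with no filter, without the trend and with DESeq2. Slc5a3 turned to 0.41 without cytosol replicate 1 and to 0.10 without migrasome replicate 1, in a range from -0.82 to 0.41 with 1 library left out. No member was higher under any alternative. The number of members lower was 3 with a minimum mean of 50, where 4 were tested, and 4 to 7 with 1 library left out. The median of Slc2a was -1.65 with a pseudocount of 5, -0.73 with no filter, -2.79 with a minimum mean of 50, -2.48 with the same total per library, -1.79 with quantile normalization and -2.85 to -1.63 with 1 library left out. The median of Slc5a was -0.19 and that of Slc16a -1.05 with no filter, and that of Slc16a -1.96 with a minimum mean of 50. The median of all tested members was -1.65 with a pseudocount of 5, -0.42 with no filter, -2.24 with the same total, -1.63 with quantile normalization and -2.18 to -1.53 with 1 library left out. Scaling to the same total shifted the median of all tested genes by -0.27 and quantile normalization by 0.12, and no tested member changed sign under either. Over all tested genes, the number higher was 393 with no filter, 322 with the same total, 483 without the trend and 231 to 2085 with 1 library left out, and the number lower 1147 to 2800 with 1 left out. With a replicate block 1802 genes were higher and 7 members lower, Slc16a11 being the one gained (limma adjusted p = 0.022). Same-numbered libraries deviated together with a correlation of 0.226 over 10860 genes, but nothing in the labels ties a number to a shared culture or day. Except where fewer genes were tested or a library was left out, the cause was not tested. Depth limits the members below the filter, and 2 to 10 migrasome reads stand behind each value of Slc2a8 and Slc2a9.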
